A study of Apis mellifera with 6 samples.

Results

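The l(2)efl cluster of the honey bee (Apis mellifera) is a row of small heat shock protein (sHSP) genes, listed under 6 gene IDs: LOC410087, LOC724274, LOC724367, LOC724405, LOC724449 and LOC724488. The members were taken by ID, and all 6 were found among the 10151 listed genes. RNA-seq was done on poly(A) RNA of 6 midguts, with 1 bee and 1 library each. Of these, 3 came from bees kept at 45 °C for 4 h and 3 from bees kept at 35 °C. Both groups received sucrose solution with 0.5% DMSO per the labels. The bees were outbred, were collected at the landing board, and the sources used here give no age. Per the study's methods, bees of a given experiment came from the same colony. Per the labels the 35 °C libraries are re-analysed from a different series, and the methods give 4 h for the 35 °C bees but 24 h of DMSO feeding for the controls of the other datasets, so a difference in origin or feeding time and the effect of temperature cannot be told apart.

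Small heat shock proteins carry an alpha-crystallin domain and assemble into oligomers that bind partly unfolded proteins and keep them from aggregating, without using ATP themselves. Chaperones of the Hsp70 family, which do use ATP, can then refold the bound proteins. In Drosophila melanogaster the heat shock factor HSF drives transcription of heat shock genes after heat, and lethal (2) essential for life is the single fly gene to which the honey bee cluster genes are most closely related. Each of the 6 members is named for that gene, and the sources used here give no more specific role of a single member.

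In RefSeq's gene table for Amel_HAv3.1 the members lie side by side on linkage group LG2 in the order given above, with LOC724274 inside the span of LOC410087. LOC100576174 precedes LOC410087, and LOC411348 follows LOC724488. The counts were made on an older build, and coordinates are therefore left out. The study names 7 genes in the cluster, since it divides LOC410087 into 410087a and 410087b, and has a qPCR primer pair for each. Its PCR found no evidence for LOC410087 as a single gene, and its figures list LOC724274 between 410087b and 410087a. The files hold 1 value for both. The primer pairs of 410087a and 410087b are shown because they mark the transcripts that share this value, and those of LOC724488 and LOC724405 because these were the members with the most and the fewest reads at 45 °C. All are given 5′ to 3′. Capitals mark the longest run of bases shared by primers of any 2 of the genes, 9 bases in the forward primers of LOC724488 and LOC724405.
410087a forward: tttcccattggtgggaagca
410087a reverse: aaccgtgatcatctgccttgt
410087b forward: ccctttgaccagcttcttgga
410087b reverse: cagcgacgaggtcttagcat
724488 forward: TGGGGTGAActtctgcgaaa
724488 reverse: tttacccgtctgctcgatgg
724405 forward: ccaTGGGGTGAAttgttgcg
724405 reverse: ccacacggaactggcttttg
The next longest runs, of 7 bases, were shared by the reverse primers of LOC724274 and 410087a and by the forward primer of LOC724488 and the reverse primer of LOC724367. The sources used here do not say how reads that match more than 1 member were counted. The division of reads between members is therefore uncertain where their sequences are alike, and also where LOC724274 and LOC410087 overlap.

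The values were gene counts divided by a size factor per library, here called normalized counts. The 45 °C libraries held between 24690115 and 26921417 reads over the listed genes, and the 35 °C libraries between 23305758 and 26279130. At 35 °C replicate 1 stood apart in chaperone genes, with 43592 normalized counts of Hsp90 against 19949 in replicate 2 and 11776 in replicate 3, and the members' fold changes and shares are also given without it. No listed symbol holds a midgut or muscle marker name from the lists used, so the tissue could not be checked against such markers. The 5 fat body genes found (Vg and the hexamerins) summed to between 923 and 1405 normalized counts at 45 °C and between 643 and 834 at 35 °C, and they went in different directions. Vg (log2 fold change 3.60, SE 1.00) and Hex110 (1.66, SE 0.21) were called higher at 45 °C, while HEX70b (-0.91), Hex70a (0.18) and Hex70c (0.0035) were not called. The groups of Vg overlapped, with 84.9, 342 and 505 normalized counts at 45 °C against 5.60, 87.2 and 13.2 at 35 °C. The 3 royal jelly protein genes found summed to between 1293 and 2199 at 45 °C and between 1426 and 2712 at 35 °C. The part of such tissue in the results was not tested. In bulk samples more cells that express a gene and more RNA per cell cannot be told apart.

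All 6 members were induced above the cut-off at 45 °C (adjusted p below 0.05 over all genes and a log2 fold change above 1, from limma), against a background of 13.1% of the 10151 genes. The increase differed greatly between members, from 10.6-fold for LOC724405 to 1047-fold for LOC724367 as ratios of the group means. For each member the 3 libraries at 45 °C lay above the 3 at 35 °C, as they did for 26.8% of all genes. The median log2 fold change was 7.08 over the 6 members and -0.01 over all genes.

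**Figure D1:**
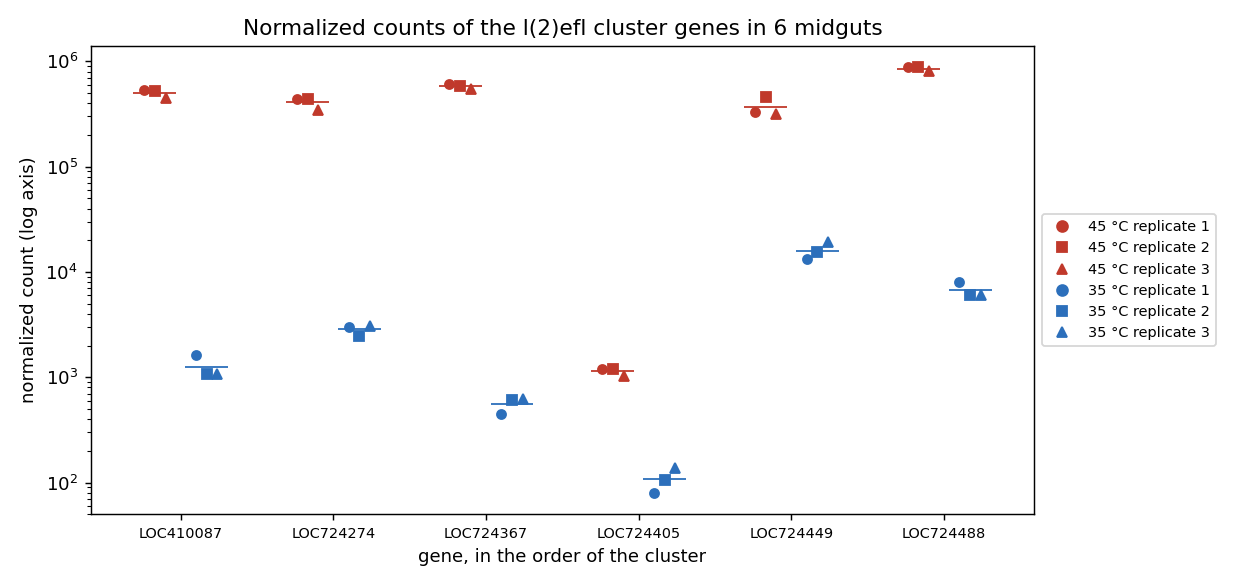
Normalized counts (log axis) of the 6 cluster genes, in the order of the cluster, in the 3 libraries at 45 °C (red, left of each pair) and the 3 at 35 °C (blue); lines are group means. LOC724449 is highest at 35 °C and LOC724488 at 45 °C, and LOC724405 is lowest at both.

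LOC724367 had 613422, 582510 and 551085 normalized counts in the 45 °C libraries, against 446, 604 and 619 in the 35 °C libraries. It was the member with the second fewest reads at 35 °C and the second most at 45 °C. Its log2 fold change was 10.04 (SE 0.17, adjusted p = 1.73e-07 from limma), and 9.89 without 35 °C replicate 1.

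LOC410087, whose value joins 410087a and 410087b, had 528998, 521280 and 449074 normalized counts at 45 °C, against 1635, 1068 and 1077 at 35 °C. The 35 °C libraries were less alike than the 45 °C libraries, with replicate 1 above the others. The log2 fold change was 8.66 (SE 0.20), and 8.86 without 35 °C replicate 1. Which of 410087a and 410087b gave these reads cannot be seen in this value.

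LOC724274 had 437539, 437748 and 346063 normalized counts at 45 °C, against 2990, 2479 and 3076 at 35 °C. Replicates 1 and 2 at 45 °C were nearly equal, with replicate 3 below them. LOC724488 had 878586, 879130 and 803769 normalized counts at 45 °C, against 7975, 6093 and 6064 at 35 °C. It was the highest member in each 45 °C library. The log2 fold changes of this pair, 7.16 (SE 0.18) for LOC724274 and 7.0 (SE 0.20) for LOC724488, were the closest of any pair of members. Without 35 °C replicate 1 they were 7.19 for LOC724274 and 7.13 for LOC724488.

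LOC724449 had 333631, 460731 and 315446 normalized counts at 45 °C, against 13408, 15407 and 19077 at 35 °C. It was the highest member in each 35 °C library and rose by a log2 fold change of 4.53 (SE 0.24, adjusted p = 2.54e-05 from limma). LOC724405 had 1193, 1188 and 1035 normalized counts at 45 °C, against 79.3, 106 and 138 at 35 °C. It rose by a log2 fold change of 3.42 (SE 0.21, adjusted p = 5.33e-05 from limma) and stayed the lowest member in each library. Without 35 °C replicate 1 the log2 fold changes were 4.41 for LOC724449 and 3.22 for LOC724405. The place of LOC724405 in the row is between LOC724367, with the largest fold change, and LOC724449.

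Neither neighbour of the cluster was induced. LOC100576174 had 98.5, 109 and 63.0 normalized counts at 45 °C, against 112, 72.8 and 96.2 at 35 °C, with a log2 fold change of -0.07 (SE 0.28). LOC411348 had 985, 1388 and 1079 normalized counts at 45 °C, against 1966, 2139 and 2785 at 35 °C. The groups of LOC411348 did not overlap, and its log2 fold change of -0.995 (SE 0.18, adjusted p = 0.005 from limma) did not reach the minimum fold change.

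Summed over the 6 members, the cluster had 2793368, 2882587 and 2466472 normalized counts at 45 °C, against 26533, 25756 and 30051 at 35 °C. This was 8.93%, 10.3% and 9.16% of all reads of the listed genes at 45 °C, against 0.122%, 0.116% and 0.137% at 35 °C, a ratio of the means of 75.6. Of the difference between the summed means, LOC724488 made up 31.5%, LOC724367 21.7%, LOC410087 18.6%, LOC724274 15.05%, LOC724449 13.2% and LOC724405 0.038%. LOC724405 was thus the one member that added almost nothing to the total.

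The shares of the members in the cluster's reads were redistributed. These shares are of reads, which also depend on transcript length, and lengths for the build of the counts were not used here. The cluster total weights each member by its length, so the size of a change in share, and for some members its direction, can depend on lengths too. The size of 1 member's share beside another's is not a ratio of molecules. LOC724449 took 11.9%, 16.0% and 12.8% of the cluster's reads at 45 °C, against 50.5%, 59.8% and 63.5% at 35 °C. Its share differed by -44.4 percentage points (SE 4.04), the largest difference of the 6, and by -48.1 points without 35 °C replicate 1. In each 35 °C library more reads came from LOC724449 than from the 5 other members together.

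LOC724367 took 22.0%, 20.2% and 22.3% of the cluster's reads at 45 °C, against 1.68%, 2.35% and 2.06% at 35 °C. This gain of 19.5 points (SE 0.68) was the largest of the members that gained. LOC410087 took 18.9%, 18.1% and 18.2% at 45 °C, against 6.16%, 4.15% and 3.58% at 35 °C, a gain of 13.8 points (SE 0.83). Without 35 °C replicate 1 the gains were 19.3 points for LOC724367 and 14.5 points for LOC410087. LOC724274 gained less, with 15.7%, 15.2% and 14.0% at 45 °C, against 11.3%, 9.62% and 10.2% at 35 °C, a gain of 4.58 points (SE 0.68), or 5.03 points without 35 °C replicate 1. LOC410087 and LOC724274 overlap in the gene table, so their shares were also summed. Together they took 33.4% ± 1.18 at 45 °C against 15.01% ± 2.10 at 35 °C, each over 3 libraries with the SD.

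LOC724488 took 31.5%, 30.5% and 32.6% of the cluster's reads at 45 °C, against 30.1%, 23.7% and 20.2% at 35 °C. The gap between the groups was small here. The highest 35 °C library, replicate 1, lay 0.441 points below the lowest 45 °C library. The gain of LOC724488 was 6.88 points (SE 2.96) with all libraries and depended on the 35 °C libraries, with 9.60 points without 35 °C replicate 1 and 4.66 points without 35 °C replicate 3. LOC724405 took 0.0427%, 0.0412% and 0.0420% at 45 °C, against 0.299%, 0.411% and 0.458% at 35 °C, so its share was lower at 45 °C although its level was higher. The difference was -0.347 points (SE 0.047), and -0.393 points without 35 °C replicate 1.

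**Figure D2:**
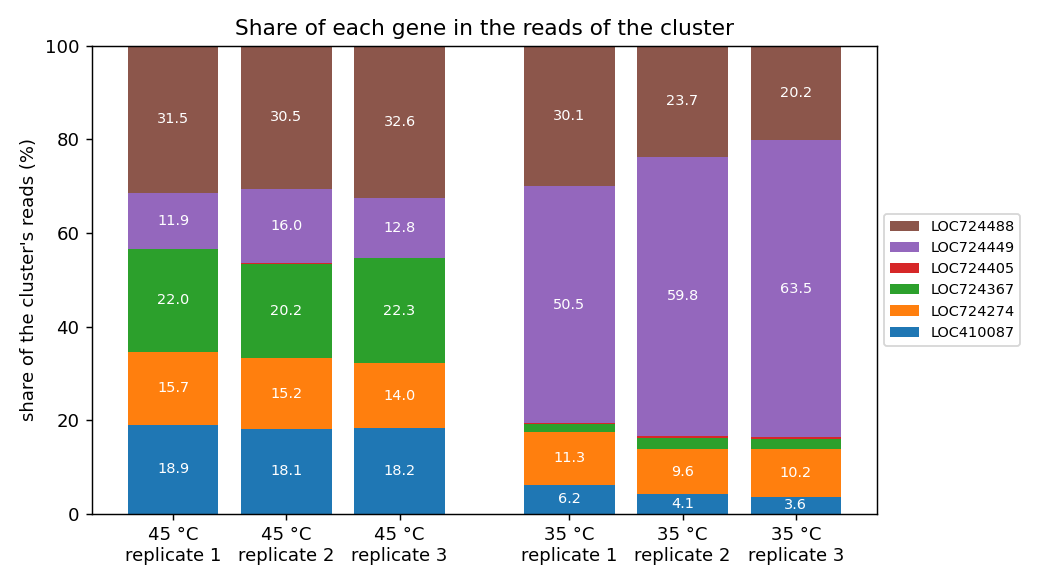
Stacked shares (%) of the 6 cluster genes in the reads of the cluster, per library, 45 °C on the left and 35 °C on the right. LOC724449 takes between 50.5% and 63.5% at 35 °C and between 11.9% and 16.0% at 45 °C. LOC724405, at most 0.458%, is barely visible.

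The groups did not overlap in any of the 6 shares. Such a share exists for the members alone, so no background over all genes is given for this count. With 3 libraries against 3, a two-sided exact permutation test of a share cannot give a p below 0.1, and each share reached 0.1. The 6 shares of a library sum to 100%, so they are not independent of each other. A 45 °C library had between 2269027 and 2537609 cluster reads and a 35 °C library between 28453 and 34035, which gave 95% Wilson intervals of at most ± 0.0604 points at 45 °C and ± 0.581 points at 35 °C. The share of LOC724405 in 35 °C replicate 1, from 85 reads, had an interval of 0.242% to 0.369%. These intervals cover counting error only.

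The cluster's reads, whose shares depend on transcript length, were spread more evenly at 45 °C. The effective number of members, which is the exponential of the Shannon entropy of the shares and would be 6 for equal shares, was 4.76, 4.84 and 4.72 at 45 °C, against 3.35, 3.05 and 2.91 at 35 °C. The difference of the means was 1.67, and 1.79 without 35 °C replicate 1. The leading pair of members took 53.4%, 50.7% and 54.9% of the cluster's reads at 45 °C, against 80.6%, 83.5% and 83.7% at 35 °C. LOC724405 apart, the highest of the 5 remaining members had between 2.01 and 2.63 times the reads of the lowest at 45 °C and between 25.5 and 30.8 times at 35 °C.

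The rank order of the members by reads changed with temperature. At 45 °C it ran LOC724488, LOC724367, LOC410087, LOC724274, LOC724449, LOC724405 by group means and in replicates 1 and 3. In 45 °C replicate 2, LOC724449 stood above LOC724274, and the values of these neighbours in the order overlapped between libraries at 45 °C, so they did not differ beyond their spread. At 35 °C the order was LOC724449, LOC724488, LOC724274, LOC410087, LOC724367, LOC724405 in each of the 3 libraries. LOC724449 thus moved down by 4 places at 45 °C, LOC724367 moved up by 3, LOC410087 and LOC724488 moved up by 1, LOC724274 moved down by 1 and LOC724405 stayed last.

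The ratio of a pair of members within a library does not depend on how libraries are scaled, and its difference between temperatures does not depend on transcript length. The 6 members form 15 pairs, and for 14 of them the log2 ratios at 45 °C and at 35 °C did not overlap. Over all pairs of listed genes this held for 50.5%. An exact permutation test of 1 pair cannot go below p = 0.1 here. The pairs share members, so the 14 are not 14 separate observations.

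The ratio of LOC724367 to LOC724405, neighbours in the row, differed most. Its log2 values were 9.01, 8.94 and 9.05 at 45 °C, against 2.48, 2.50 and 2.16 at 35 °C, a difference of 6.62 (SE 0.12). The ratio of LOC724367 to LOC724449 had log2 values of 0.88, 0.34 and 0.80 at 45 °C, against -4.91, -4.67 and -4.94 at 35 °C, a difference of 5.51 (SE 0.19). In this pair LOC724367 changed from the lower to the higher member in each library. LOC410087 and LOC724449 also changed order in each library, with log2 ratios between 0.18 and 0.67 at 45 °C and between -4.15 and -3.04 at 35 °C.

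The exception was the ratio of LOC724274 to LOC724488, with log2 values of -1.01, -1.01 and -1.22 at 45 °C, against -1.42, -1.30 and -0.98 at 35 °C. The groups overlapped and the difference was 0.15 (SE 0.15, exact permutation test p = 0.4), which does not show that the members rose by equal amounts. Without 35 °C replicate 3 the groups of this pair did not overlap either. The overlapping genes LOC410087 and LOC724274 had log2 ratios of 0.27, 0.25 and 0.38 at 45 °C, against -0.87, -1.21 and -1.51 at 35 °C, so their values did not keep a fixed ratio. Of the 15 pairs, 7 changed order by group means and 6 in every library. The pair of LOC724274 and LOC724449 was the one with mixed order at 45 °C.

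**Figure D3:**
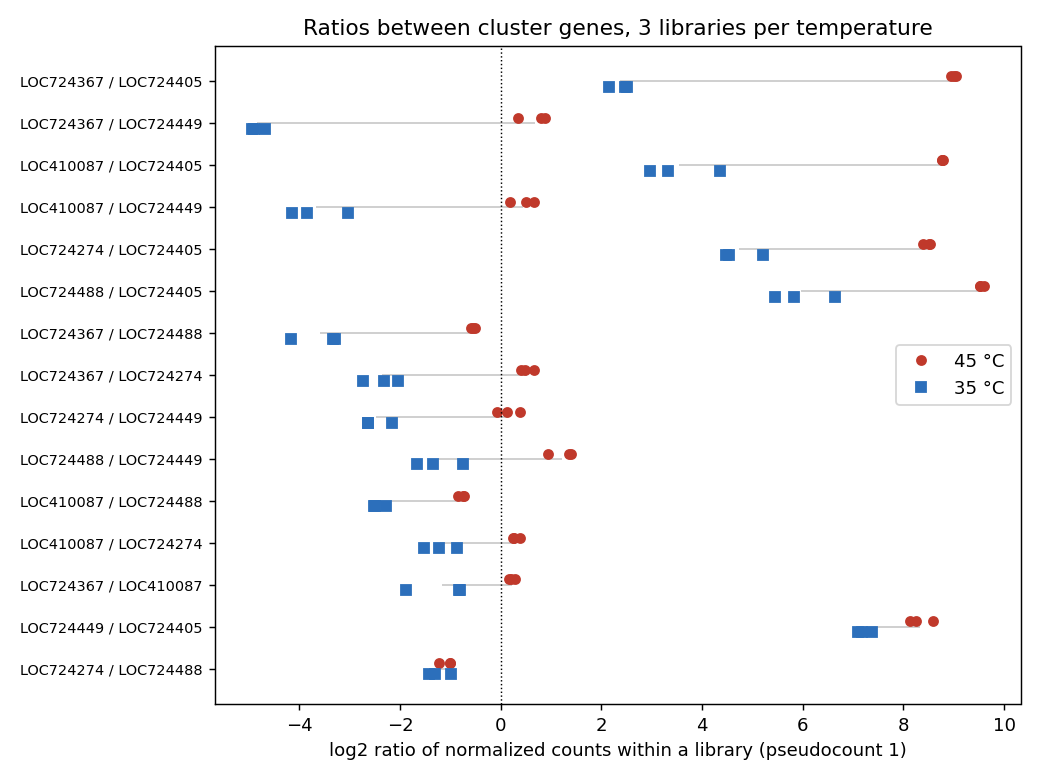
Log2 ratios of normalized counts within each library for the 15 pairs of cluster genes, with the 3 values at 45 °C (red circles, above) and the 3 at 35 °C (blue squares, below) joined by a line between the group means. Pairs whose line crosses the dotted zero changed order, and only LOC724274 / LOC724488, at the bottom, overlaps between temperatures.

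Covariation among libraries was described by the deviation of each library from the mean of its temperature, since 3 libraries are too few for a correlation. At 45 °C replicate 3 was the lowest of the 3 libraries for all 6 members, as it was for 32.3% of all genes, by between 5.37% (LOC724367) and 15% (LOC724274) below the mean. Of the 3 other sHSP genes of the study, LOC412197 and LOC408875 were also lowest there, and LOC410857 was highest. Of the 5 other chaperone genes, Hsp90 and Hsc70-4 were lowest in that replicate.

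LOC724449 was the member that varied most among the 45 °C libraries, with replicate 2 24.5% above the mean and the others 9.81% and 14.7% below it. No other member had replicate 2 more than 7.52% above its mean. The coefficients of variation at 45 °C were 21.4% for LOC724449, 13.0% for LOC724274 and between 5.08% and 8.82% for the remaining members. In the pairs without LOC724449, the log2 ratio ranged over at most 0.26 among the 45 °C libraries, and in the 5 pairs with it over between 0.46 and 0.54. The tightest ratio at 45 °C was that of LOC410087 to LOC724405, which ranged over 0.03 at 45 °C and over 1.39 at 35 °C.

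At 35 °C the members fell into different orders over the libraries. Replicate 1 was highest for LOC410087 (29.7% above the mean) and LOC724488 (18.8% above it), while it was lowest for LOC724367, LOC724405 and LOC724449 (19.9%, 26.3% and 16.0% below it). LOC724274 was highest in replicate 3 and lowest in replicate 2. Hsp90, Hsc70-3, Hsc70-4, Hsc70-5 and Cdc37, chaperones and a co-chaperone outside the cluster, were all highest in replicate 1 and lowest in replicate 3. Replicate 1 was the highest 35 °C library for 45.7% of all genes. Among the 15 pairs, the log2 ratio ranged more widely at 35 °C than at 45 °C in 13, the exceptions being LOC724449 with LOC724367 and with LOC724405. How often this holds over all pairs of listed genes was not counted, so the 13 cannot be read as particular to the cluster. The cluster had fewer reads at 35 °C, so counting error was larger there, and its part in the wider range was not tested.

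**Figure D4:**
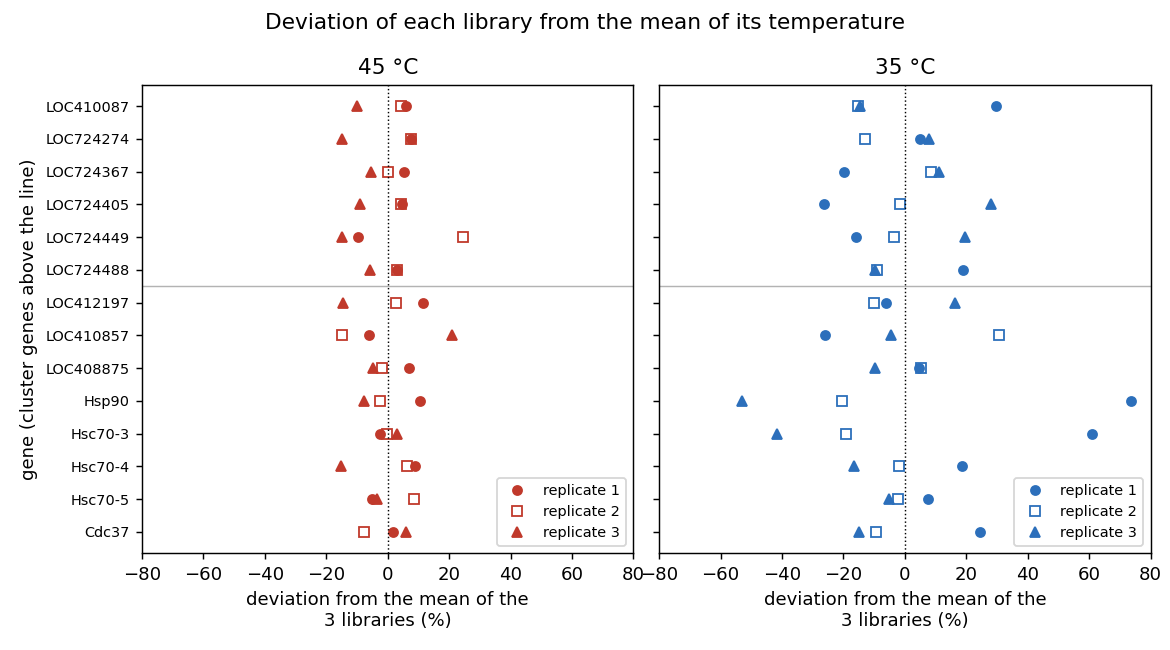
Deviation (%) of each library from the mean of the 3 libraries of its temperature, 45 °C on the left and 35 °C on the right, for the 6 cluster genes (above the line) and 8 other sHSP and chaperone genes (below it). At 45 °C replicate 3 (triangles) is lowest for all 6 cluster genes, and at 35 °C replicate 1 (filled circles) is highest for 2 of them and lowest for 3.

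Outside the cluster, 8 genes were compared, the 3 other sHSP genes of the study and 5 chaperones found by symbol. Chaperone genes listed under an LOC ID alone were not searched for. Of the 8, 7 were induced above the cut-off, against 13.1% of all genes. None was lower, and 1 did not pass, with a median log2 fold change of 3.25 over the 8. LOC412197, another l(2)efl gene, had a log2 fold change of 8.0 (SE 0.17), between those of LOC410087 and LOC724274. LOC410857, which overlaps a long non-coding RNA gene in the gene table and is therefore uncertain, had 3.20 (SE 0.24). The study instead names LOC410857 as the l(2)efl homolog that heat did not induce in its dataset, with transcripts unchanged by qPCR. The reason for this conflict was not tested. The gene that did not pass was LOC408875, which the study calls Hspβ1, with 0.26 (SE 0.12). Among the chaperones Hsp90 had the largest log2 fold change, 4.80 (SE 0.44). Hsc70-5, the mitochondrial Hsp70 protein in Drosophila, followed with 3.54 (SE 0.13), and Hsc70-3, known in Drosophila as the Hsp70 protein of the endoplasmic reticulum, had the smallest, 2.88 (SE 0.36). All 5 chaperones had smaller log2 fold changes than the 4 most induced members. Hsp90 had a larger one than LOC724405 (3.42, SE 0.21). Hsp90 against LOC724449 (4.53, SE 0.24) and Hsc70-5 against LOC724405 were also larger, but by less than the larger SE of each pair. Values of the chaperones without 35 °C replicate 1, which stood apart in Hsp90, are not given.

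The gene outside the cluster with the profile nearest to each member was found from log2(value + 1) minus its mean at 35 °C, over the 6 libraries. LOC724449 had the closest, LOC100578771, with a root mean square difference of 0.18. It had 117, 241 and 134 normalized counts at 45 °C against 5.60, 5.92 and 7.06 at 35 °C, the latter from 6, 7 and 8 reads. Like LOC724449 it was highest at 45 °C in replicate 2, but it was chosen for its likeness over these same libraries, so this is no separate finding. LOC107964970 was nearest to LOC724405 (0.20), and LOC102654968 to both LOC724488 (0.27) and LOC724274 (0.35). LOC410620 was nearest to LOC410087 (0.33) and to LOC724367, from which it lay at 1.32. No other gene outside the cluster lay nearer to LOC724367. The files pair none of these IDs with a gene name.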

How the data were processed

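Per the labels, the authors trimmed reads with Trimmomatic 0.36 and used STAR, Subread and DESeq2. The paper's methods give paired-end reads of 150 bp and the Amel 4.5 build. The sources used here give neither the annotation release nor the use of strand. The deposited values, a signal, were gene counts divided by the authors' DESeq2 size factors. Each value came out as a whole number of reads (100% within 0.01), which were used for intervals, DESeq2 1.42.0 and edgeR 4.0.16. The main test was limma 3.58.1 in R 4.3.3 on log2(value + 1) over the 10151 genes, which all had a mean of at least 1, with Benjamini-Hochberg adjustment. Calls had an absolute log2 fold change above 1 and an adjusted p below 0.05. Adding 1 understates the change of low genes. Shares and ratios were compared by exact permutation tests, without adjustment over the members alone.

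The members and lists were chosen with earlier results of these data known. Genes named beside the members were the 3 other sHSP genes of the study, 2 flanking genes, the nearest profile per member and, of the 5 chaperones found by symbol, the 2 with the largest fold changes and the 1 with the smallest. Hsc70-4, Cdc37 and the fat body genes are named beyond this rule, chosen after their values were seen. Gene order came from the Amel_HAv3.1 table, which held 9300 of the IDs. No library pair of a temperature differed by less than the sampling noise (chi-square per gene at least 44.4). The labels do not say that the bees of a temperature were kept apart, so p-values measure the spread between these 3 bees. The alternatives were DESeq2, edgeR with TMM factors, library size alone, quantile normalization, pseudocounts of 0.1 and 10, no filter and a mean of at least 10, a replicate block, and each library left out in turn.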

Additional observations from a re-analysis of the deposited data

How the results depend on the processing

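All 6 members stayed above the cut-off under all 15 alternatives of the fit, with log2 fold changes between 9.66 and 10.13 for LOC724367 and between 3.04 and 3.62 for LOC724405. Over all genes the median log2 fold change was -0.39 with library size alone and -0.15 with quantile normalization, and the members' values were lower under both. Under quantile normalization they fell unevenly, with LOC724449 at 3.82 in place of 4.53 and LOC724405 at 3.28 in place of 3.42. The order of the 6 log2 fold changes was the same in 14 of the 15, and under quantile normalization LOC724488 (6.82) stood above LOC724274 (6.69). With LOC410087 and LOC724274 summed as 1 member at both temperatures, the difference in the effective number of members was smaller, 0.96 in place of 1.67. The summed genes took 33.4% of the cluster's reads at 45 °C and 15.01% at 35 °C. The size of this difference thus depends on how the members are counted. Summing members lowers an effective number whether or not they overlap, so the smaller difference does not measure the overlap. Set against all other listed genes in place of all listed genes, the cluster differed by 10.3 percentage points in place of 9.33. With each library left out, these differences ranged from 1.57 to 1.79 members and from 8.92 to 9.59 points, and the pairs without overlap from 14 to 15. Deviations of same-numbered libraries correlated at 0.15, 0.02 and 0.01, and those of differently numbered libraries at between -0.11 and 0.12. Each deviation is from a mean of only 3 libraries, so these values cannot decide whether replicate numbers pair the libraries. With the replicate block all 6 members were called, with adjusted p of 0.0003 at most from limma. Shares per kilobase were not run, since no annotation of the counted build was used. The gain in share of LOC724488 ranged from 4.66 to 9.60 points with each library left out. LOC724405 had the fewest reads of the members, 85 to 156 per library at 35 °C.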
